A study of Homo sapiens with 4 samples.

Results

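The BCL2 family sets whether a stressed cell opens its mitochondria and dies. Pro-survival members hold the pore-forming effectors in check, the BH3-only proteins are the stress sensors that bind and neutralise the pro-survival members or activate the effectors, and the effectors permeabilise the outer mitochondrial membrane so that cytochrome c reaches the caspases. In prostate cancer cells the family is best known for BCL2, MCL1 and BCL2L1, which are studied as survival factors during androgen withdrawal.

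The members described here were 10 genes of the family out of 13321 named genes on the array. They were chosen by name, with earlier results of these data known. All 18 probes annotated to them, out of 47228, are described, and 15 of these passed the filter for detected signal. BCL2, BCL2L1, BCL2L2 and MCL1 made up the pro-survival side, with 7 probes. BAK1, BAD, BID, BIK, BCL2L11 and BCL2L13 made up the pro-death side, with 11 probes. BCL2L13 was placed there because its overproduction kills cells, although it is also known as a mitophagy receptor.

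The samples were 2 arrays of RNA from cells with a Siah2 shRNA (shSiah2) and 2 arrays of RNA from cells with the pLKO.1 control vector, all of the CWR22Rv1 line. This line is a human prostate carcinoma line from a xenograft that relapsed after castration, and Siah2 is a RING-type E3 ubiquitin ligase. All cells of both groups carried the pLKO.1 backbone, a lentiviral vector, and had been selected and kept in puromycin. The sources used here do not say whether the cells were a clone or a pool, nor which hairpin was used. Separate cultures are not named for the replicates. Every p-value therefore covers the spread among these arrays alone, which may be technical. The series title places the study in androgen receptor activity of castration-resistant disease. The comparison shows which transcripts differ between the shSiah2 and pLKO.1 arrays.

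On every array between 42.1% and 43.7% of probes were detected. The SIAH2 probe, the check of the labels, had normalized intensities of 6.20 and 6.51 (log2) on the shSiah2 arrays, against 8.08 and 8.33 on the pLKO.1 arrays, and fell by 1.85 on the log2 scale (SE 0.251, limma adjusted p = 0.00117). The luminal keratin genes KRT8 and KRT18 were detected on all 4 arrays. Of 9 tested prostate luminal markers 7 fell, beside 7.24% of named genes called in either direction. Among the 7, ACP3 was tested only because both pLKO.1 arrays detected it, so its fall lends no support to a difference. The summed deposited signal of that list, not normalized, was 8499 and 8028 on the shSiah2 arrays, against 16355 and 21758 on the pLKO.1 arrays. Of 4 tested stromal markers LUM and ACTA2 rose and DCN fell, beside the same 7.24% of named genes. The summed signals of the stromal list were 4602 and 4523 in shSiah2 cells and 2310 and 3247 in pLKO.1 cells. Of 2 leukocyte markers tested, CD14 and CD68, neither passed (sums of 2468 and 1605 against 1443 and 1929), and the 1 basal marker tested, KRT15, did not pass either (136 and 135 against 150 and 162). KRT15 was detected on neither shSiah2 array, so it too was tested only through the pLKO.1 arrays. What part these shifts have in the values below was not tested, and in bulk RNA fewer cells of a type and less RNA per cell cannot be told apart.

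No BCL2 family gene passed the threshold in shSiah2 cells, on either side of the family. Of 15 tested probes 0 rose and 0 fell at an adjusted p under 0.05 by limma, beside 6.19% of all tested probes, 2.47% that rose and 3.72% that fell. At an unadjusted p under 0.05 limma passed 2 of the 15, BIK and BCL2L11, beside 21.1% of all tested probes. The BCL2L11 probe was tested only because both shSiah2 arrays detected it, so its p lends no support to a difference. The groups did not overlap for 5 of the 15 probes, beside 50.3% of all tested probes. The median absolute change was 0.25 on the log2 scale for the member probes and 0.29 for all tested probes. For 12 of the 15 probes the 95% confidence interval lay wholly within a 2-fold change in either direction, and the other 3 were BIK, BCL2L11 and 1 probe of BID.

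**Figure D1:**
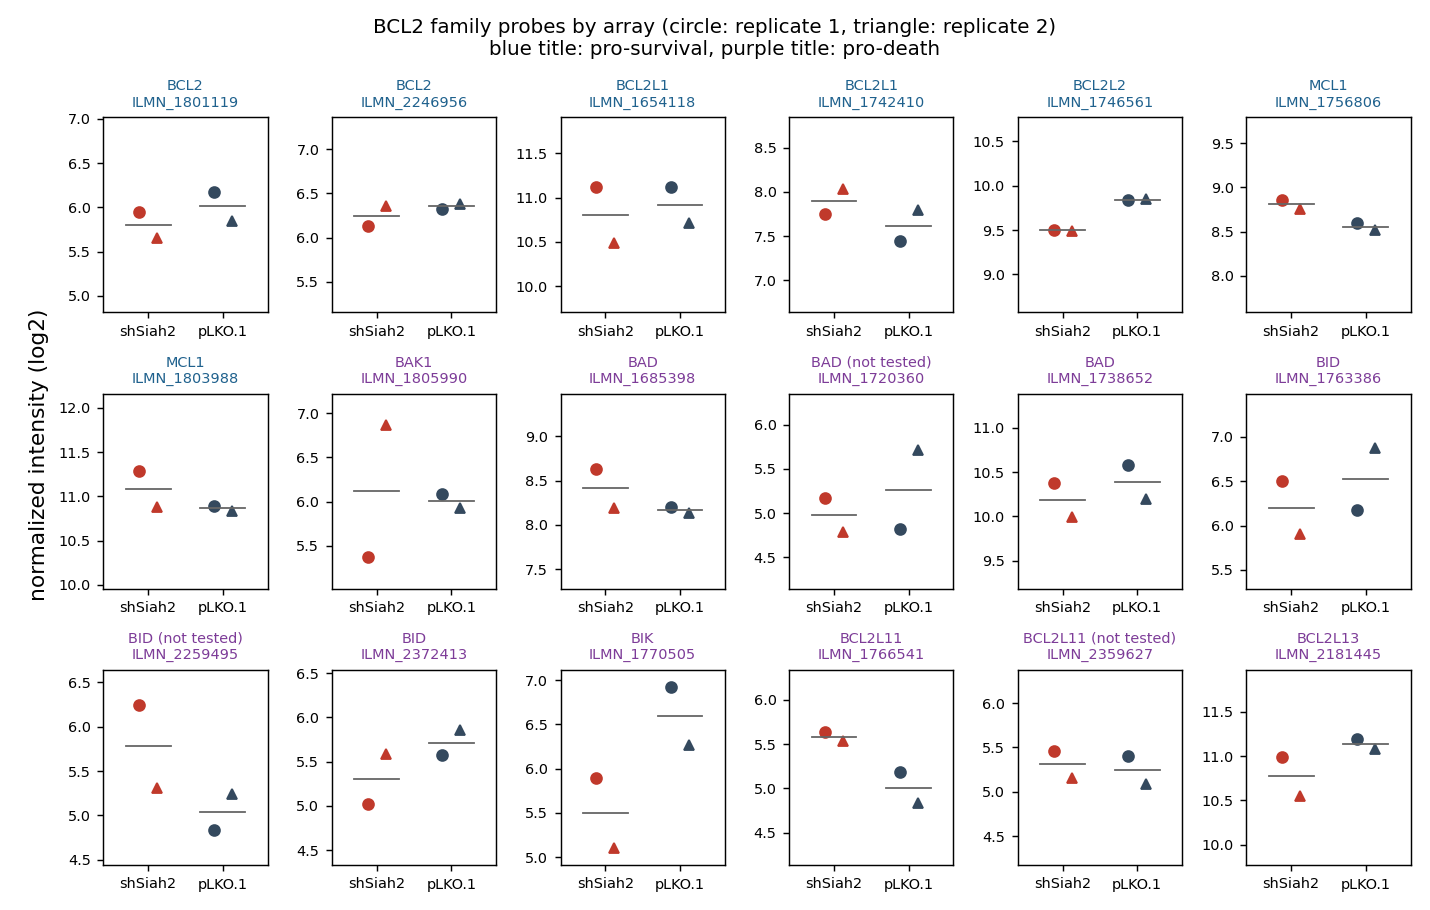
Normalized intensity (log2) of all 18 probes of the 10 genes on each array, with shSiah2 (red) left of pLKO.1 (dark blue), circles for replicate 1, triangles for replicate 2 and bars for group means; every panel spans the same range of 2.2 log2 units. The groups overlap in most panels, BIK lies lower in shSiah2 cells, and the BAK1 arrays of the shSiah2 group lie far apart.

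Among the pro-survival genes, MCL1 encodes a short-lived guardian that is turned over quickly by the proteasome. Its brighter probe (ILMN_1803988) read 11.29 and 10.88 on the shSiah2 arrays and 10.89 and 10.83 on the pLKO.1 arrays, and its other probe (ILMN_1756806) read 8.86 and 8.76 against 8.59 and 8.52. The groups overlapped on the first probe and were separate on the second, with shSiah2 higher. Both probes pointed up by similar amounts, 0.22 (95% interval -0.33 to 0.77, adjusted p = 0.691) and 0.25 (-0.27 to 0.77, adjusted p = 0.609), and neither passed. These intervals hold nothing above a 1.71-fold rise or below a level of 0.794 times that of pLKO.1 cells.

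BCL2L2, which encodes BCL-w, had the tightest replicates of the family. It read 9.50 and 9.49 in shSiah2 cells and 9.84 and 9.85 in pLKO.1 cells, so the groups were separate and the difference was many times the SD within either group (0.00198 and 0.00588, n = 2 each). The change of -0.35 (SE 0.237, adjusted p = 0.447) still did not pass, since limma draws each probe's spread towards that of all probes. Its interval ran from 1.82-fold lower to 1.12-fold higher, and in the 13 alternative settings of the processing the change stayed between -0.38 and -0.31.

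BCL2L1, whose long isoform BCL-xL blocks death and whose short splice form promotes it, had probes that pointed opposite ways. The brighter probe (ILMN_1654118) read 11.12 and 10.49 in shSiah2 cells and 11.12 and 10.71 in pLKO.1 cells, a difference of -0.11 (95% interval -0.72 to 0.51). The dimmer probe (ILMN_1742410) read 7.75 and 8.03 against 7.45 and 7.79, a difference of 0.27 (-0.28 to 0.83). Both probes overlapped between groups, both are annotated to the same transcript, and their splice-form coverage was not analysed here. The brighter probe's direction turned to 0.10 without pLKO.1 replicate 1 and to 0.21 without shSiah2 replicate 2.

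BCL2, the founding pro-survival gene, was near the limit of detection. The deposited signals of its probes were 173.2 and 159.8 (ILMN_1801119) and 181.5 and 188.6 (ILMN_2246956) on the shSiah2 arrays, against 164.9 and 166.5 and 171.5 and 199.4 on the pLKO.1 arrays, where the lowest signal of any detected probe lay between 140.7 and 154.1 on the 4 arrays. All 4 arrays detected both probes, and the groups overlapped on both. The changes were -0.21 (adjusted p = 0.703) and -0.11 (adjusted p = 0.854), and the second turned to 0.0085 without shSiah2 replicate 1.

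On the pro-death side, BIK, a BH3-only gene whose product sits mainly at the endoplasmic reticulum, came closest to a call. Its deposited signals were 171.1 and 140.5 on the shSiah2 arrays and 205.8 and 191.3 on the pLKO.1 arrays, and the probe was detected on 1 of 2 shSiah2 arrays and on both pLKO.1 arrays. Normalized levels were 5.90 and 5.11 in shSiah2 cells, against 6.92 and 6.27 in pLKO.1 cells, so both shSiah2 arrays lay below both controls. The difference was -1.09 (SE 0.318, adjusted p = 0.0666), which is 2.14-fold lower with an interval of 1.32-fold to 3.46-fold, and it missed the threshold.

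BIK's difference was negative in all 12 alternatives in which the probe could be tested, and it passed in 4 of them. It passed with the replicate block (adjusted p = 0.0137), with an intensity trend and robust prior (adjusted p = 0.0492), without pLKO.1 replicate 2 (-1.42, adjusted p = 0.0397) and without shSiah2 replicate 1 (-1.49, adjusted p = 0.0117). It was smallest without background correction, at -0.45, and lay at -0.62 in the authors' value table. Without pLKO.1 replicate 1 it was -0.77 and without shSiah2 replicate 2 it was -0.70, so each array moved it. With no filter, the replicate block and the intensity trend the difference stayed at -1.09 by construction, and only its error and p-value could change. As the groups were separate, leaving out 1 array could not turn its sign either.

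**Figure D2:**
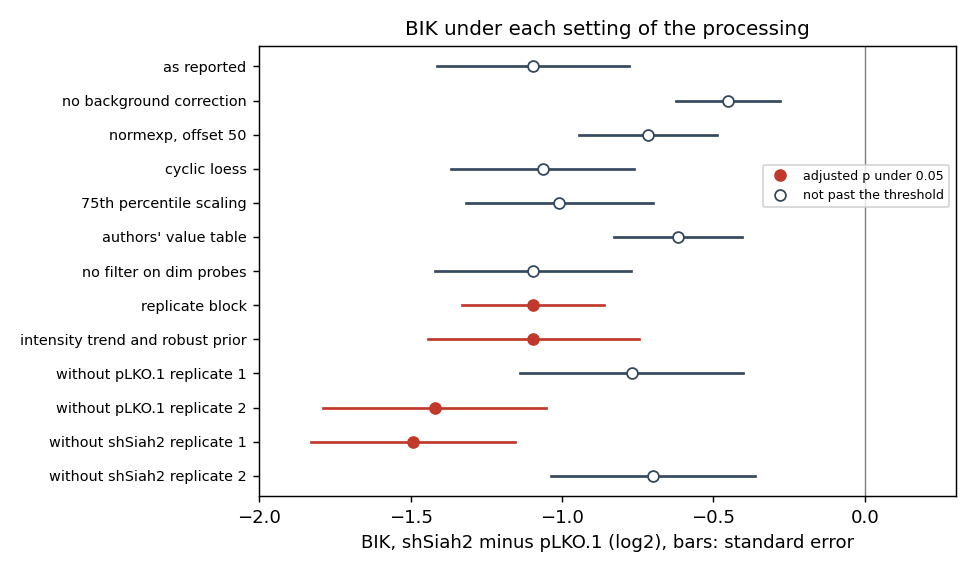
BIK's change (log2, shSiah2 minus pLKO.1) as reported and in 12 alternative settings, with bars for the standard error and filled red points where the adjusted p was under 0.05. All points lie left of 0, from -1.49 to -0.45, and 4 of the 12 alternatives pass.

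BCL2L11 encodes BIM, a BH3-only activator that binds every pro-survival member. On its tested probe (ILMN_1766541) the signals were 160.3 and 155.8 on the shSiah2 arrays, both detected, and 129.9 and 119.0 on the pLKO.1 arrays, neither detected. The fitted difference was 0.57 (95% interval 0.03 to 1.12, adjusted p = 0.211), but its size is not measured, since the controls were not above background. Against the lowest level of a detected probe on each pLKO.1 array, the shSiah2 mean lay 1.09-fold higher. This bound carries no error for the spread of the arrays, and the probe was tested only because both shSiah2 arrays detected it. For this bound each pLKO.1 array was taken at its lowest level of a detected probe, which lay above the probe's own level, and the mean was set against that of the shSiah2 arrays. A second BCL2L11 probe (ILMN_2359627), detected on 1 array and not tested, read 5.46 and 5.16 against 5.41 and 5.09, with overlapping groups.

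BID, the BH3-only protein that caspase-8 cleaves to link death receptors to mitochondria, was dim on its 3 probes. The probe with the highest mean of the 3 (ILMN_1763386) read 6.50 and 5.90 in shSiah2 cells and 6.17 and 6.88 in pLKO.1 cells, a difference of -0.32 (adjusted p = 0.605) that turned to 0.028 without pLKO.1 replicate 2. The probe ILMN_2372413 read 5.02 and 5.58 against 5.57 and 5.85, a difference of -0.41 (adjusted p = 0.427). Their groups overlapped. Its remaining probe (ILMN_2259495), detected on 1 shSiah2 array and no pLKO.1 array and so not tested, read 6.24 and 5.31 against 4.84 and 5.24. As only 1 of its 4 values was above background, no size or direction is given for it.

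BAD, a BH3-only protein that is held inactive by phosphorylation and 14-3-3 binding, also had probes of opposite sign. Its brightest probe (ILMN_1738652) read 10.37 and 9.99 in shSiah2 cells and 10.58 and 10.20 in pLKO.1 cells, with a change of -0.20 (adjusted p = 0.727). The probe ILMN_1685398 read 8.63 and 8.19 against 8.21 and 8.13, with a change of 0.24 (adjusted p = 0.646). The groups overlapped on both. The other probe (ILMN_1720360) was detected on 1 of the 4 arrays and not tested, so no size or direction is given for it.

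BAK1, the pore-forming effector in the set, could not be placed in either direction. Its signals were 150.4 and 218.9 on the shSiah2 arrays, with only the second detected, and 160.9 and 170.7 on the pLKO.1 arrays. The SD within the shSiah2 group was 1.05 on the log2 scale (n = 2), the widest of any tested member probe, against 0.107 in the pLKO.1 group. Its change of 0.11 (adjusted p = 0.909) became 0.86 without shSiah2 replicate 1 and -0.63 without shSiah2 replicate 2, and passed in neither case.

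BCL2L13 was bright and read 10.99 and 10.55 in shSiah2 cells, below 11.19 and 11.08 in pLKO.1 cells. Its change of -0.36 (95% interval -0.92 to 0.19, adjusted p = 0.461) did not pass, and it was negative in all 13 alternatives, from -0.59 to -0.14. The changes of filter, the replicate block and the intensity trend leave that estimate as it was. With separate groups, leaving out 1 array could not turn its sign.

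**Figure D3:**
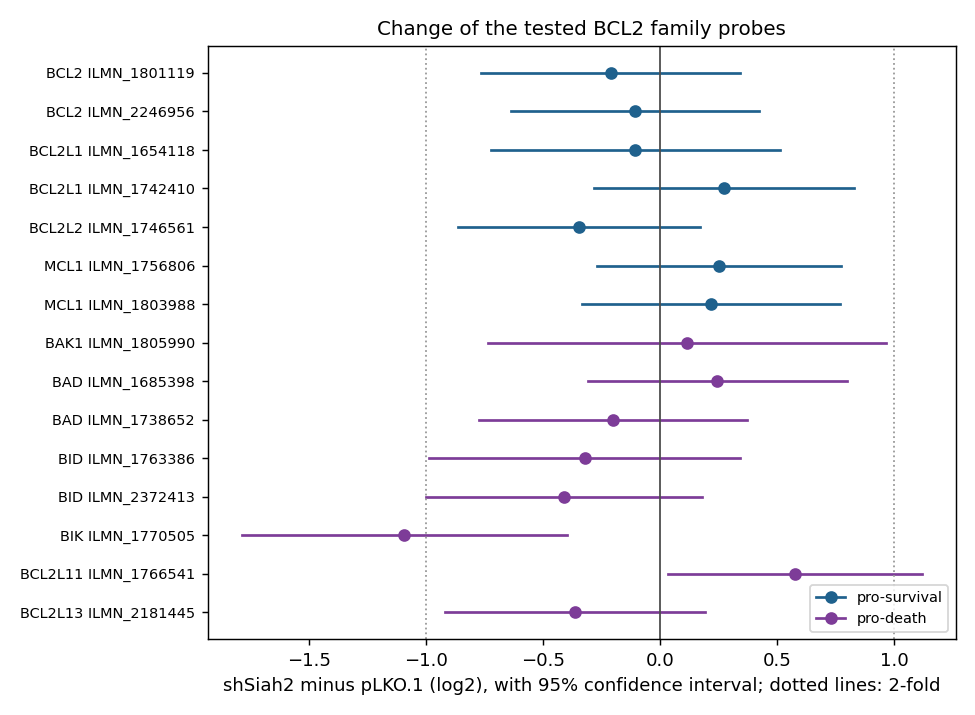
Change of each of the 15 tested probes (log2, shSiah2 minus pLKO.1) with its 95% confidence interval, pro-survival probes in blue and pro-death probes in purple, and dotted lines at a 2-fold change. No probe passes after adjustment over all probes, BIK lies lowest, and the BCL2L11 interval is fitted against 2 pLKO.1 arrays on which the probe was not detected.

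Set side by side, with each gene represented by its brightest tested probe, the pro-survival genes had a median change of -0.11 (4 genes, from -0.35 to 0.22) and the pro-death genes one of -0.26 (6 genes, from -1.09 to 0.57), beside a median of 0.01 over 11894 named genes tested. Of 4 pro-survival genes 1 and of 6 pro-death genes 2 had a higher mean in shSiah2 cells, beside 6079 of 11894 named genes. The upper end of the pro-death range is BCL2L11, whose controls were not detected. With all tested probes of a gene averaged, the medians were -0.038 for pro-survival and -0.17 for pro-death genes. Relative to each gene's mean over the 4 arrays, the pro-survival median was 0.04 and -0.14 on the shSiah2 arrays, against 0.10 and -0.03 on the pLKO.1 arrays. The pro-death median was 0.06 and -0.35 on the shSiah2 arrays, against 0.13 and 0.02 on the pLKO.1 arrays. On both sides shSiah2 replicate 1 lay between the control arrays and shSiah2 replicate 2 lay lowest. Without shSiah2 replicate 2 the medians were -0.0092 for pro-survival and -0.083 for pro-death genes, and without shSiah2 replicate 1 they were -0.17 and -0.49.

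Other genes of the family, from a list that held 13 of them with 8 tested, gave 0 calls by limma and 0 at an unadjusted p under 0.05, with a median of 0.02. The backgrounds over named genes were 7.24% called and 22.9% at an unadjusted p under 0.05. PMAIP1, which encodes the MCL1-binding BH3-only protein NOXA, had 2 tested probes. The brighter read 7.61 and 7.81 in shSiah2 cells and 7.27 and 7.11 in pLKO.1 cells. These groups were separate, with a change of 0.52 (adjusted p = 0.245). BNIP3L, a mitophagy receptor, stood at -0.38 on the brighter of its 2 tested probes (adjusted p = 0.411). BBC3, encoding the p53-induced sensor PUMA, and the effector gene BAX were picked for their role after the values were seen, and they stood at 0.03 and 0.02, although a dimmer BAX probe stood at 0.42 (adjusted p = 0.425).

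Of 14 tested mitochondrial death and caspase genes 1 rose and 1 fell, beside 7.24% of named genes called. Both act at the same step, the apoptosome. CASP9, the initiator caspase of the apoptosome, rose. Its brighter probe (ILMN_1718070) read 8.82 and 8.91 in shSiah2 cells, against 7.30 and 7.88 in pLKO.1 cells, a 2.41-fold higher level (1.27 on the log2 scale, SE 0.266, adjusted p = 0.0166). A second CASP9 probe (ILMN_1786046) rose by 0.91 (adjusted p = 0.0477), and the call on the brighter probe was lost without pLKO.1 replicate 1, at 0.98, and with no filter on dim probes (adjusted p = 0.0597). CYCS, which encodes cytochrome c, fell. It read 8.06 and 7.97 in shSiah2 cells, against 9.07 and 9.20 in pLKO.1 cells, and was 2.18-fold lower (-1.13, SE 0.239, adjusted p = 0.0177). The CYCS call was lost without either pLKO.1 array and without shSiah2 replicate 2, at -1.19 to -1.06, and since CYCS has many near-identical pseudogenes its single probe may not separate them. APAF1, the scaffold of the apoptosome, was picked for its role after the values were seen, and it stood at 0.31 (adjusted p = 0.567). CASP2 had a larger change on the brightest of its 3 tested probes, -0.47 (limma adjusted p = 0.295), with separate groups. The median of these 14 genes was 0.04.

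The lists of death receptor pathway genes, inhibitor of apoptosis genes and regulators held no call by limma. Of 7 tested death receptor pathway genes 1 passed at an unadjusted p under 0.05, beside 22.9% of named genes tested. This was CFLAR, which encodes the caspase-8 inhibitor FLIP. It read 6.24 and 5.85 in shSiah2 cells, against 7.27 and 6.77 in pLKO.1 cells (-0.98, SE 0.271, adjusted p = 0.056), and FADD, the adaptor of these receptors, stood at -0.38. That list's median was -0.30. CFLAR passed in 5 of its 12 alternatives, among them without shSiah2 replicate 1, at -1.17, and it was smallest without background correction, at -0.46. Of 4 tested inhibitor of apoptosis genes 1 passed at an unadjusted p under 0.05, beside the same 22.9%. This was BIRC2, the ubiquitin ligase cIAP1, with 2 tested probes. The brighter read 10.45 and 11.10 in shSiah2 cells, against 10.00 on each pLKO.1 array (0.77, adjusted p = 0.125). BIRC2 passed in 5 of its 13 alternatives and stood at 0.45 without shSiah2 replicate 2. BIRC6 stood at 0.34, and the median of the 4 was 0.27.

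Of 24 tested regulators of BCL2 family proteins and transcripts, 6 passed at an unadjusted p under 0.05, beside 22.9% of named genes tested. After adjustment 0 passed, beside 7.24%, and the median was 0.14. HUWE1, a ubiquitin ligase that targets MCL1, was higher on both shSiah2 arrays than on both pLKO.1 arrays, and its change was 0.79 (SE 0.254, adjusted p = 0.0965), and it passed with the stricter detection filter (adjusted p = 0.0385). FBXW7, the substrate receptor of another MCL1 ligase, stood at 0.73 on its brightest probe (adjusted p = 0.123) and at 0.16 and 0.26 on its others. The other 4 of the 6, named after the values were seen, were the kinase gene GSK3B, whose product marks MCL1 for such ligases, at -0.62 (adjusted p = 0.157), the MCL1 ligase component BTRC at 0.64 (adjusted p = 0.222), DDIT3, the stress transcription factor CHOP that can induce BCL2L11, at 0.60 (adjusted p = 0.173), and the stress kinase gene MAPK8 at 0.52 (adjusted p = 0.233). MAPK8 had 2 tested probes, and the value is that of the brighter. Over the 24 genes 16 were higher and 8 lower in shSiah2 cells, beside 6079 higher and 5815 lower of 11894 named genes. None of the 24 passed in the reported fit.

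**Figure D4:**
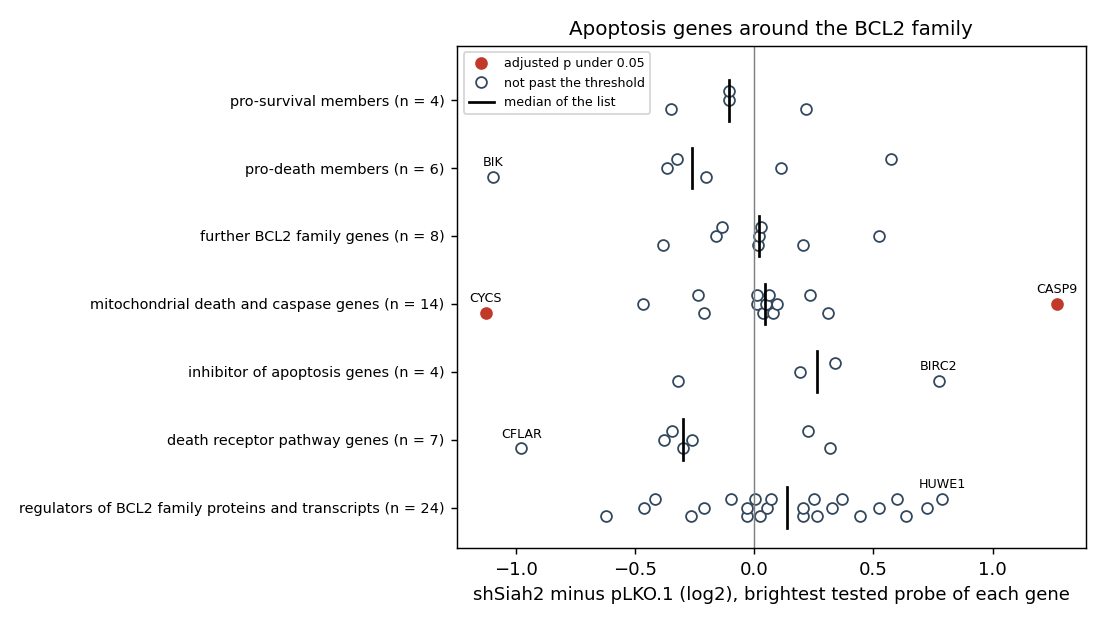
Change (log2, shSiah2 minus pLKO.1) of each tested gene on its brightest probe, in the members' 2 groups and 5 lists of apoptosis genes, with black bars for list medians and filled red points for an adjusted p under 0.05. CASP9 at 1.27 and CYCS at -1.13 are the only filled points, and list medians lie between -0.30 and 0.27.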

How the data were processed

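Biotinylated cRNA was prepared for Illumina arrays, per the labels' protocols. The authors deposited a linear intensity and a detection p-value for each of 47228 probes, per the file headers; the sources used here name no scanner software. They also deposited a value table of 24733 probes on a log2 scale, judged from slopes of 1.01 to 1.02 against log2 signal. Its column medians were 7.59 and 7.62 (shSiah2) and 7.60 and 7.61 (pLKO.1), and its scaling and centring are unknown.

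With limma 3.58.1 in R 4.3.3, intensities were corrected by normexp using detection p-values (offset 16), quantile normalized and logged (base 2). The 20750 probes detected (p under 0.05) on 2 or more of the 4 arrays were tested with lmFit and eBayes, two-sided, shSiah2 minus pLKO.1, with Benjamini-Hochberg adjustment over all tested probes at 0.05. The code was tested on simulated data. Symbols came from the platform annotation, updated through Entrez IDs to RefSeq (18007 probes with 1 symbol, 4 with several, the rest unnamed here); a gene in a list was its brightest tested probe. Members and lists were chosen with earlier results of these data known. All member probes are given, and of each list the called genes and the 2 with the largest absolute change. List genes named beyond these were picked after the values were seen. Arrays left out were dropped after normalization. The number of arrays limits the precision.

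Alternatives were no background correction, offset 50, cyclic loess, 75th percentile scaling, the authors' value table, no filter, detection p under 0.01 on all 4 arrays, the replicate block, an intensity trend with robust prior, each array left out, and probes averaged per gene.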

Additional observations from a re-analysis of the deposited data

How the results depend on the processing

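Counts of called member probes were 0 in the reported fit and 1, BIK, lower in shSiah2 cells, with the replicate block and with an intensity trend and robust prior; leaving out each array in turn gave 0 to 1. The labels state no pairing of same-numbered arrays, so whether they were handled together is not known. Over probes, the deviations of same-numbered arrays correlated at 0.089, and the block raised the called probes to 1815. The changes of filter, the block and the intensity trend leave each probe's change as it was, so its direction could not turn under them. Nor could it turn with 1 array left out for probes whose groups were separate. Of 189 values of single member probes under alternatives, 180 kept their direction and side of the threshold, 4 (all BIK) passed and 5 turned direction without passing: BCL2L1 (ILMN_1654118) at 0.10 when pLKO.1 replicate 1 was left out and 0.21 without shSiah2 replicate 2 (range over arrays left out -0.42 to 0.21), BID (ILMN_1763386) without pLKO.1 replicate 2 (-0.67 to 0.028), BCL2 (ILMN_2246956) without shSiah2 replicate 1 (-0.22 to 0.0085) and BAK1 without shSiah2 replicate 2 (-0.63 to 0.86). The pro-death median was -0.49 to -0.083 and the pro-survival median -0.19 to -0.0092 with an array left out, and they were -0.17 and -0.038 with probes averaged per gene, against -0.26 and -0.11 as reported. SIAH2 stayed called throughout. Of the 5 lists' genes, 1 rose and 1 fell as reported; 3 rose and 2 fell without background correction, 2 and 2 with offset 50, the authors' value table and the intensity trend, 2 rose with the stricter detection filter, 2 fell with cyclic loess, the replicate block and probes averaged per gene, 0 rose with no filter, and 0 to 2 rose and 0 to 2 fell with an array left out. All called probes numbered 1284, with 512 higher and 772 lower; with no filter 640, 216 and 424; with the intensity trend 775 were higher; and with an array left out 520 to 1329, 177 to 520 and 343 to 809. The cause of these moves was not tested, except that no filter tests more probes. BCL2, BID, BIK, BAK1 and BCL2L11 lay near background, where the offset sets much of the size of a change.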
